A study of Homo sapiens with 3 samples.

Results

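Nucleic acid sensing and interferon induction were examined in HEK293T through 10 genes, CGAS, STING1, TBK1, IRF3, IFI16, RIGI, IFIH1, MAVS, TLR3 and TREX1. They were taken by name, as sensors of DNA or RNA, their adaptors and the enzymes and factor next to them. The rule uses no measured value, although earlier results of these data were known when it was written. They are 10 of the 61193 genes that had a listed transcript in the RNA-seq tables. HEK293T is a human embryonic kidney line that expresses the SV40 large T antigen, and it is commonly described as lacking parts of this pathway. All samples were 3 biological replicates of 1 condition, collected 24 h after seeding and without any treatment, so there were no groups to compare and nothing below rests on a test between conditions. The labels name total RNA and a QuantSeq 3′ mRNA-seq kit in the protocols but give the material as genomic DNA, and the values are read here as RNA.

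Foreign or misplaced nucleic acids inside a cell are read by a small number of proteins. Cytosolic DNA activates cGAS, which makes the messenger cyclic GMP-AMP, and this binds STING on the endoplasmic reticulum. Double-stranded viral RNA is bound in the cytosol by RIG-I and MDA5, which act through MAVS on mitochondria, and in endosomes by TLR3, which acts through the adaptor TRIF. All of these routes meet at the kinase TBK1, which phosphorylates IRF3, and IRF3 then enters the nucleus and switches on interferon genes. TREX1 works against the pathway by degrading DNA in the cytosol. In a line such as HEK293T these genes set how the cell answers transfected DNA or RNA.

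TBK1 was the only one of the 10 genes with a mean of at least 1 TPM, the level taken here as expressed. IRF3, at 0.868 TPM, reached it with mitochondrial genes left out (1.17 TPM) and without replicate 3 (1.01 TPM), and with protein-coding transcripts only no gene did. TPM is the count of a transcript divided by its length and rescaled to a total of 1000000 per replicate. For comparison, 21.7% of all genes and 38.2% of 19926 protein-coding genes reached this level. TBK1, IRF3, RIGI and TLR3 had more than 3 counts in every replicate, which 39.5% of protein-coding genes had. The 3 counts stand for the limit that a count of 0 allows, at a one-sided level of 95%, and the two-sided exact Poisson 95% interval used below ends at 3.69 counts for a count of 0. CGAS and MAVS were counted but stayed at or below 3 counts. STING1, IFI16, IFIH1 and TREX1 had 0 counts in all 3 replicates, as did 36.5% of protein-coding genes. The 10 genes together held 43, 27 and 60 counts in replicates 1, 2 and 3.

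**Figure D1:**
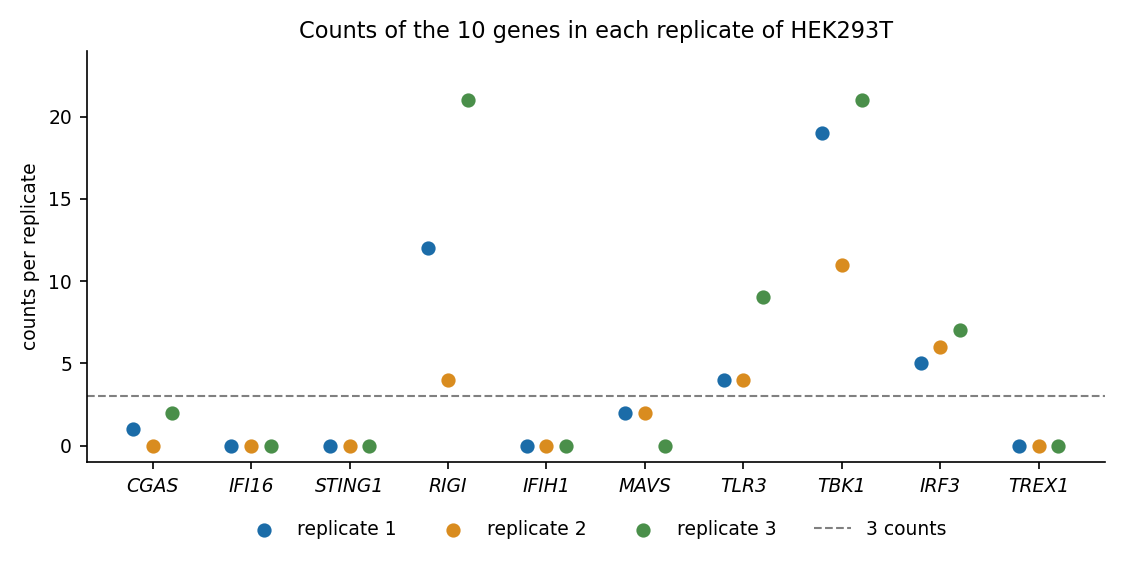
Counts of each of the 10 genes in the 3 replicates, with the y axis in counts and a dashed line at 3 counts. RIGI and TBK1 reach 21 counts in replicate 3, and STING1, IFI16, IFIH1 and TREX1 lie at 0 in all replicates.

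The replicates held 7019253, 6262175 and 8521624 counts, so 3 counts correspond to 0.427, 0.479 and 0.352 counts per 1000000 (CPM). These limits and the intervals below cover counting error only, since the reads carry no molecular identifiers. Mitochondrial genes took 9.59%, 5.7% and 25.8% of the counts, and they are part of the total that TPM is scaled to. With these genes left out the mean TPM was 10.9 in place of 7.76 for TBK1, 1.17 in place of 0.868 for IRF3, 0.742 in place of 0.492 for RIGI, 0.266 in place of 0.181 for TLR3 and 0.0857 in place of 0.0542 for CGAS, in the same order. Among markers of the line, the kidney progenitor factor SIX2 had 83.2 ± 29.4 TPM (SD, n = 3), the neural intermediate filament INA 38.8 ± 16.5 TPM and N-cadherin, CDH2, 25.4 ± 4.43 TPM. Keratin 18 (KRT18), PAX8, NEFL and NEFM had 0 counts, and of these NEFL has a 3′ end that lies in a single listed transcript. The immune cell markers PTPRC, CD14, LYZ, CD68, CD3E and ITGAM had 0 counts, and among them only LYZ has such an end.

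What a count of 0 means for these genes depends on how the counts were made. In libraries of this kind the priming at the poly(A) tail confines reads to the 3′ end of each mRNA, while the deposited tables count reads per transcript. Genes in which several listed transcripts end in the same bases had more than 3 counts less often. The handling of reads on several transcripts is not given, and whether it lies behind this was not tested. Ends were compared on the same strand, and only those of the 10 genes were also compared with strands pooled. Among protein-coding genes whose last 300 exonic bases lie wholly in 1 listed transcript, 56.4% (4361 of 7736, Wilson 95% interval 55.3 to 57.5) had more than 3 counts in every replicate. Among those in which at most 10% of these bases lie in 1 listed transcript the share was 26.4% (2808 of 10654, 25.5 to 27.2), and 44.7% had 0 counts. The genes of the DNA end-binding proteins XRCC5 and XRCC6, named after their values were seen, were in this class and had 0 counts in every replicate.

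**Figure D2:**
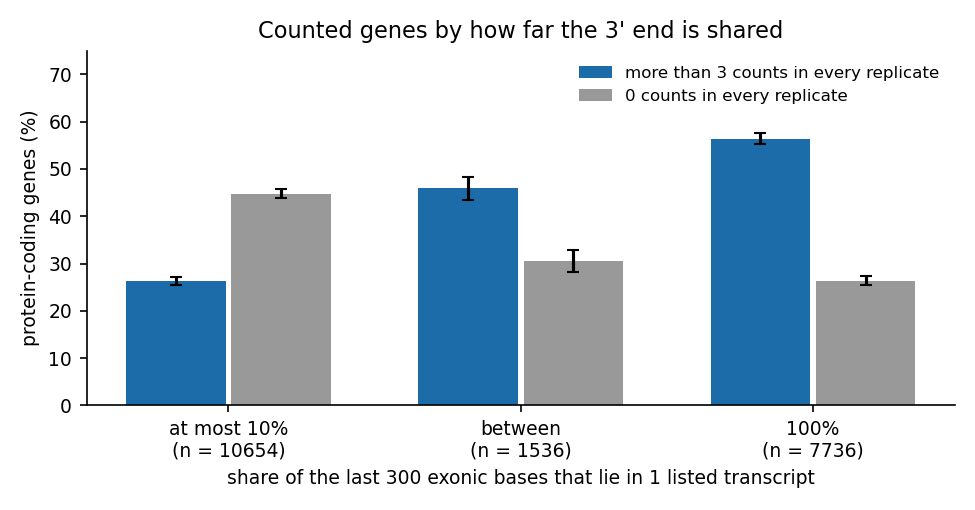
Share of protein-coding genes with more than 3 counts in every replicate (blue) and with 0 counts in every replicate (grey), by how much of the 3′ end lies in 1 listed transcript. The y axis is in percent, bars are shares and error bars are Wilson 95% intervals over genes. The blue share is 26.4% where the end is shared and 56.4% where it is not.

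Only CGAS and TLR3 among the 10 genes have a 3′ end that lies wholly in 1 listed transcript. In the other 8 less than 10% of the last 300 bases do. Of 19926 protein-coding genes, 7736 have a whole end of this kind and 10654 have at most 10%. For CGAS and TLR3 a low count can therefore be read as few reads from the 3′ end. For the other 8 genes a low count or a 0 does not show how much mRNA was present. A shared end did not always go with low counts, since STEEP1, a STING trafficking factor with a shared end, had 1694 to 1984 counts per replicate. These statements rest on the GENCODE v44 annotation, in which 105 of the 111 listed transcripts of the 10 genes have the length that the tables give.

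**Figure D3:**
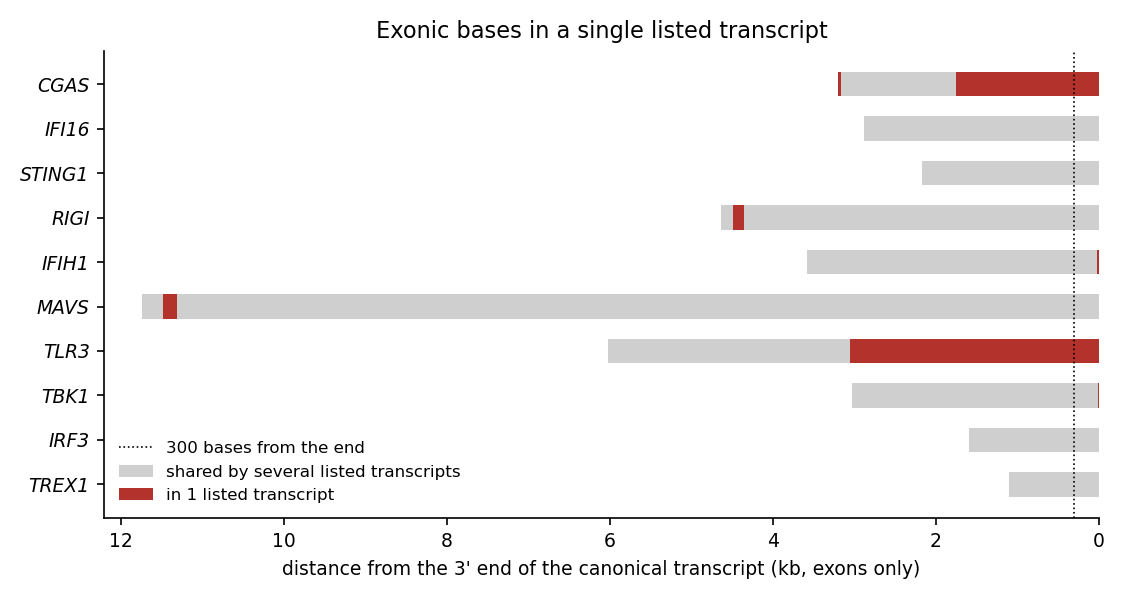
Canonical transcript of each of the 10 genes, drawn to scale by distance from its 3′ end in kb of exon, with bases that lie in 1 listed transcript in red and shared bases in grey. The dotted line stands 300 bases from the end. Red covers the 3′ end of CGAS and TLR3, lies far from the end in MAVS and RIGI, and is nearly or wholly missing in the others.

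CGAS encodes the cytosolic DNA sensor cGAS (ENSG00000164430, hg38 chr6:73413515-73452297, minus strand). It had 1, 0 and 2 counts, or 0.0688, 0 and 0.0937 TPM, with a mean of 0.0542 ± 0.0485 TPM (SD, n = 3). The 3 counts together have an exact Poisson 95% interval of 0.619 to 8.77, which is 0.0284 to 0.402 CPM over the 3 replicates. No replicate was above the limit that a count of 0 allows. This is a readable low value, because the last 1753 bases of its canonical transcript are in no other listed transcript and each of its 3 listed transcripts has a 3′ end of its own. CGAS mRNA was thus near or below what this depth detects. The gene on the opposite strand there, DDX43, had 0 counts as well. The end of the CGAS transcript, from which its reads would come, is shown with the poly(A) signal in capitals, 16 bases before the end (chr6:73423711-73423740, minus strand, last exon, after the coding region).
CGAS 3′ end: cttttgagAATAAAttggagttgaattttt

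IFI16 encodes a nuclear DNA sensor of the PYHIN family (ENSG00000163565, chr1:158999968-159055155, plus strand). It had 0 counts in all 3 replicates. None of the last 300 bases of its canonical transcript is in a single one of its 13 listed transcripts. The level of IFI16 could thus not be told from this 0.

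STING1 encodes the adaptor that cyclic GMP-AMP binds (ENSG00000184584, chr5:139475533-139482935, minus strand). All 3 replicates had 0 counts over 22 listed transcripts. Only 1 of the last 300 bases of the canonical transcript is its own, and no listed STING1 transcript has a 3′ end of its own. The low CGAS value and the 0 of STING1 therefore differ in what they say, the former being a reading at this depth and the latter not.

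TREX1 encodes the main DNA exonuclease of the cytosol (ENSG00000213689, chr3:48465811-48467645, plus strand). It had 0 counts over 6 listed transcripts, none of which has a single exonic base of its own. TREX1 lies inside ATRIP, a DNA damage checkpoint gene read from the same strand, which had 18, 19 and 20 counts and a mean of 1.03 TPM. In GENCODE v44 no read could thus be given to 1 TREX1 transcript alone, and the annotation behind the counts is not known. The level of TREX1 could not be told from this 0.

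RIGI encodes RIG-I, the sensor of short RNA with a 5′ triphosphate (ENSG00000107201, chr9:32455302-32526208, minus strand). Its 12, 4 and 21 counts came to 0.571, 0.225 and 0.680 TPM, with a mean of 0.492 ± 0.238 TPM (SD, n = 3). Replicate 2 was the lowest and replicate 3 the highest, and their CPM, 0.639 and 2.46, differed more widely than those of any other of the 4 genes above 3 counts. All 37 counts (exact Poisson 95% interval 26.1 to 51.0) were on the canonical transcript ENST00000379883, and the other listed transcript, ENST00000379868, had 0. In GENCODE v44 the pair share the whole 3′ end and differ by exon 2 of 18, a coding stretch of 135 bases within the N-terminal CARD domains, 4357 bases from the 3′ end (chr9:32500805-32500939, minus strand). The tables however list ENST00000379868 with 4089 bases, 404 fewer than the annotation, so where these transcripts differed for the authors is not known. The exon is shown because it is the annotated difference between a counted and an uncounted RIGI transcript.
RIGI exon 2: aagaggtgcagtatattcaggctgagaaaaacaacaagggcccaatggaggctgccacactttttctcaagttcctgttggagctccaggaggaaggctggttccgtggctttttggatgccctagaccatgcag

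IFIH1 encodes MDA5, the sensor of long double-stranded RNA (ENSG00000115267, chr2:162267074-162318684, minus strand). It had 0 counts in all replicates over 6 listed transcripts. Of the last 300 bases of the canonical transcript 19 are its own, or 6.33%. A shorter coding transcript, ENST00000421365, has 618 bases and a 3′ end of its own and also had 0 counts. For this short form the 0 is a reading, and for the full-length mRNA it is not.

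MAVS encodes the mitochondrial adaptor that RIG-I and MDA5 share (ENSG00000088888, chr20:3846799-3876123, plus strand). It had 2, 2 and 0 counts, or 0.0376, 0.0445 and 0 TPM, and a mean of 0.0273 ± 0.0239 TPM (SD, n = 3). These values lie at or below the limit of 3 counts in every replicate. Its canonical transcript is 11731 bases long, the longest of the 10, and the 2 listed transcripts share nearly all of their 3′ end. All 4 counts (exact Poisson 95% interval 1.09 to 10.2) were on ENST00000428216, whose own bases are exon 3 of 7, a coding exon of 175 bases that lies 11302 bases from the 3′ end and encodes part of the CARD (chr20:3857635-3857809, plus strand). Both listed lengths match the annotation. In this annotation the own bases of the counted transcript thus lie where a 3′ library has few reads. The low MAVS value does not show how much mRNA was present. That exon is shown as the only stretch by which its canonical transcript could be told from the other listed one.
MAVS exon 3: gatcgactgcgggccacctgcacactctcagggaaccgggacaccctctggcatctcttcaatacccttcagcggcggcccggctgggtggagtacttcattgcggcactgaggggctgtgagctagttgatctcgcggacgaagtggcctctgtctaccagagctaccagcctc

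TLR3 encodes the endosomal receptor for double-stranded RNA (ENSG00000164342, chr4:186068911-186088073, plus strand). It had 4, 4 and 9 counts, which are 0.147, 0.173 and 0.224 TPM, with a mean of 0.181 ± 0.0395 TPM (SD, n = 3). All 3 replicates were above 3 counts, and the sum of 17 counts has an exact Poisson 95% interval of 9.9 to 27.2. All counts were on the canonical transcript, whose last 3049 bases are its own. TLR3 was thus the one sensor of the 10 with a readable 3′ end and counts above the limit in every replicate. Its level was at percentile 49.5 of all protein-coding genes, which include those with shared ends. Among protein-coding genes with an end of their own, 53.4% reached 1 TPM. Their median was 24.3 counts per replicate, above the counts of TLR3. TLR3 in each replicate lay above the highest CGAS value, 0.0937 TPM. The end of the TLR3 transcript is shown beside that of CGAS because these are the 2 readable ends, and it holds no AATAAA in its last 40 bases (chr4:186088044-186088073, plus strand, last exon, after the coding region).
TLR3 3′ end: ccattaaaaattgtattttttgagcagcta

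AATAAA was found in the last 40 bases of the canonical transcript of 7 of the 10 genes, all but STING1, RIGI and TLR3. Of 20045 canonical protein-coding transcripts, 62.1% have it there. Of the pair with readable ends, CGAS has AATAAA there and TLR3, the higher of them, does not. Variants of this signal, such as the ATTAAA in the TLR3 end shown above, were not searched for.

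TBK1 encodes the kinase on which the DNA and RNA routes converge (ENSG00000183735, chr12:64452090-64502114, plus strand). It had 19, 11 and 21 counts, or 9.68, 6.95 and 6.67 TPM, and a mean of 7.76 ± 1.66 TPM (SD, n = 3). All replicates lay well above the limit, and the level is at percentile 78.4 of protein-coding genes. None of these counts was on the canonical coding transcript ENST00000331710, of whose last 300 bases 14 are its own. The retained-intron transcript ENST00000545392 took 16, 10 and 15 counts, 80.4% of the sum. It is listed with 408 bases, against 1781 in GENCODE v44, and alone gave 6.85 of the 7.76 TPM. Another retained-intron transcript, ENST00000541805, had 2, 1 and 3 counts, and ENST00000652389, annotated for nonsense-mediated decay, had 1, 0 and 3. In GENCODE v44 ENST00000545392 has no exonic base of its own, so where its countable bases lay for the authors is not known. ENST00000652389 has 507 such bases and a 3′ end of its own. The counts of the gene as a whole do not show from which TBK1 mRNA the reads came. Most of the TBK1 value in TPM was thus divided by a short listed length. With only protein-coding transcripts counted it is 0. ENSG00000277895 on the opposite strand had 1, 3 and 2 counts.

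IRF3 encodes the transcription factor that TBK1 phosphorylates (ENSG00000126456, chr19:49659569-49665875, minus strand). It had 5, 6 and 7 counts, or 0.707, 1.31 and 0.586 TPM, with a mean of 0.868 ± 0.389 TPM (SD, n = 3). In CPM it was the most even of the 4 genes above 3 counts, and replicate 2 alone passed 1 TPM. As with TBK1, no count was assigned to a protein-coding transcript. ENST00000597636, annotated for nonsense-mediated decay, had 4, 4 and 6 counts, or 77.8% of the 18 (exact Poisson 95% interval 10.7 to 28.4). The retained-intron transcript ENST00000597369 had 1, 2 and 0, and ENST00000596644 had 0, 0 and 1. None of the last 300 bases of the canonical transcript is its own among 31 listed transcripts. BCL2L12 on the opposite strand had 1, 2 and 0 counts.

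Of the 130 counts of the 10 genes, 61 were on canonical transcripts, those of RIGI, TLR3, MAVS and CGAS. The other 69 were those of TBK1 and IRF3, all on retained-intron transcripts or transcripts annotated for nonsense-mediated decay. The kinase and the factor, which stood highest in TPM, thus had no count assigned to a coding transcript. This does not show that no read came from coding mRNA. How often it holds over all protein-coding genes was not computed, so it cannot be called particular to this pair.

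In order of mean TPM the genes were TBK1, IRF3, RIGI, TLR3, CGAS and MAVS, followed by the 4 at 0. TBK1 did not overlap with any other gene, since its lowest replicate had 6.67 TPM and the highest IRF3 replicate 1.31. IRF3 and RIGI overlapped. RIGI was above TLR3 in TPM in each replicate, although its lowest value, 0.225 TPM, was next to the highest of TLR3, 0.224. Without division by length the pair tied in replicate 2, with 4 counts and 0.639 CPM each. TLR3 and CGAS did not overlap, and CGAS and MAVS did. Without division by length the means were 2.31 ± 0.494 CPM for TBK1, 1.60 ± 0.917 for RIGI, 0.831 ± 0.123 for IRF3 and 0.755 ± 0.263 for TLR3 (SD, n = 3). RIGI then came before IRF3, and TBK1 and RIGI had 21 counts each in replicate 3. The gap between TBK1 and RIGI was thus 7.76 against 0.492 in TPM and far narrower without the division by length. The median over the 10 genes was 0.0408 TPM, against 0.195 over protein-coding genes, and this median includes the genes whose ends are shared.

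**Figure D4:**
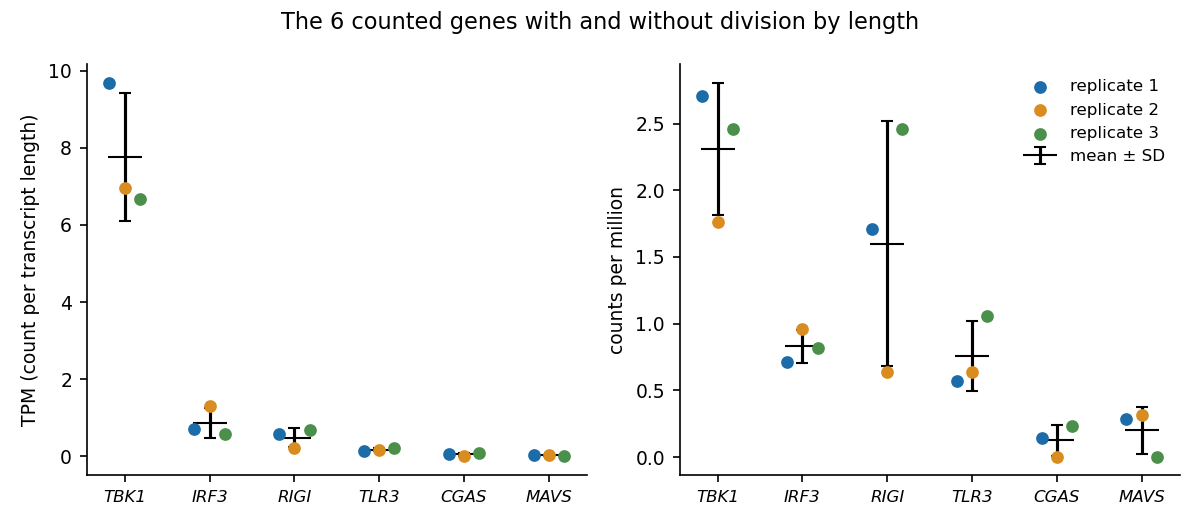
The 6 counted genes in TPM (left) and in counts per 1000000 (CPM, right), with each replicate as a point and the mean ± SD (n = 3) in black. TBK1 stands apart at 7.76 TPM on the left, while on the right its 2.31 CPM overlap with those of RIGI.

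The protein-coding genes nearest in level over the 3 replicates, by the Euclidean distance of log2(TPM + 1), were ARHGAP26 for TBK1 (distance 0.0366), UBE3A for IRF3 (0.0582) and SLITRK6 for RIGI (0.0458). They had 18, 10 and 17 counts, 12, 19 and 15 counts, and 11, 4 and 18 counts. With 3 replicates of 1 condition this says only that the levels were alike.

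Around the 10 genes, 119 further genes of the pathway were listed by role, and 49 of them had at least 1 TPM, while 51 had more than 3 counts in every replicate and 50 had 0 counts. Beside these counts stand the shares of 38.2%, 39.5% and 36.5% over protein-coding genes, which the lists as a whole were close to. Of the 44 with a 3′ end wholly in 1 listed transcript, 27 had more than 3 counts in every replicate, and of the 69 with a shared end 20 did, beside 56.4% and 26.4% of protein-coding genes with such ends. The lists are descriptions and were not tested.

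**Figure D5:**
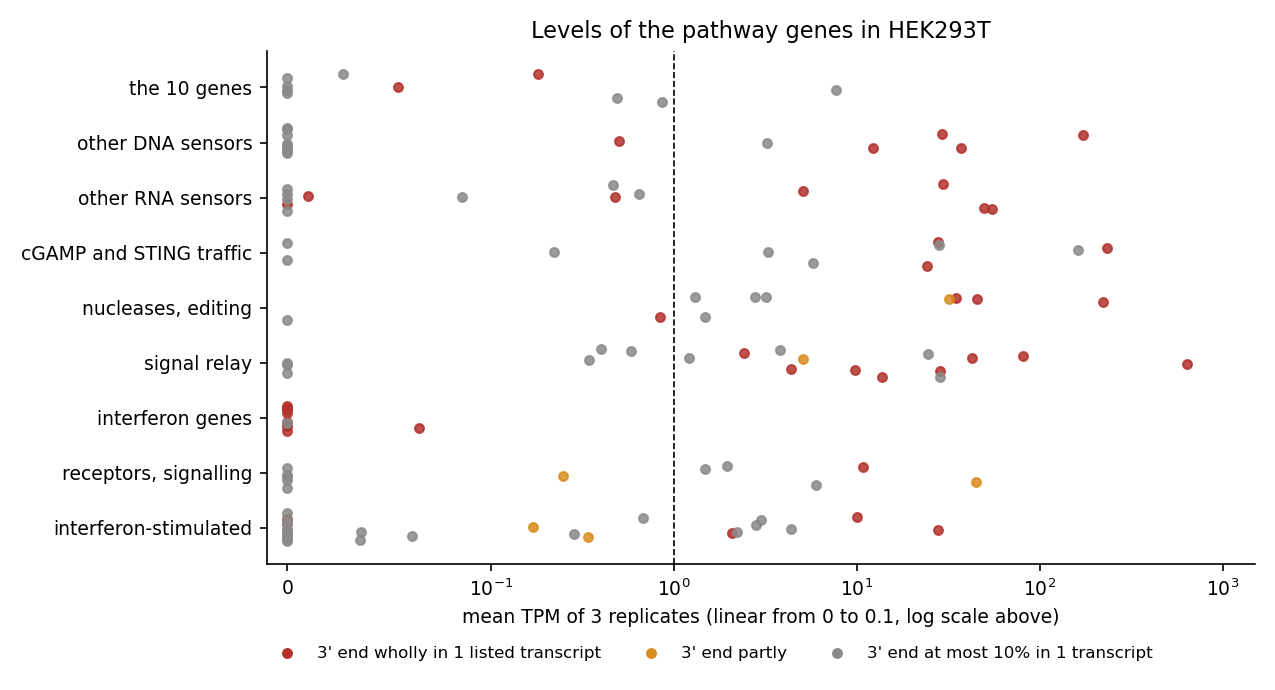
Mean TPM of the 10 genes and of the 8 pathway lists, 1 point a gene, on an axis that is linear from 0 to 0.1 and logarithmic above, coloured by how much of the 3′ end lies in 1 listed transcript. The dashed line marks 1 TPM. The interferon genes lie at or near 0 although 11 of 12 have an end of their own, and most points at 0 in the other lists are grey, with a shared end.

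Other DNA sensors and their cofactors ranged from 0 to 172 TPM. ZCCHC3, a cofactor of cGAS, had 172 ± 47.8 TPM (SD, n = 3), the DNA-dependent kinase PRKDC 37.1 ± 1.19 TPM and the break-end nuclease MRE11 29.4 ± 2.80 TPM. Of the 15 genes 5 had at least 1 TPM, beside 38.2% of protein-coding genes. AIM2, ZBP1, DDX41 and MNDA were among 9 with 0 counts, beside 36.5% of protein-coding genes. All 9 are among the 10 of this list with a shared end, and 44.7% of protein-coding genes with such an end had 0 counts. Among the 5 with an end of their own, 4 had more than 3 counts in every replicate, beside 56.4% of protein-coding genes with such ends. The exception, named after its values were seen, was PYHIN1, a relative of IFI16, with 4, 1 and 9 counts and 0.5 ± 0.329 TPM (SD, n = 3). PRKDC, with 1773 to 3012 counts per replicate, and CGAS, with 0 to 2, are thus both read from ends of their own.

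RNA sensors beside the 10 included TRIM25, the ubiquitin ligase that activates RIG-I, with 55.2 ± 21.3 TPM (SD, n = 3). The CpG-RNA binder ZC3HAV1 had 49.8 ± 15.4 TPM and the RNA-activated kinase EIF2AK2 29.8 ± 8.18 TPM. TICAM1, which encodes the TLR3 adaptor TRIF and was named after its values were seen, had 68, 66 and 59 counts and 5.11 ± 1.62 TPM. RNF135, TLR8, TLR9 and MYD88 had 0 counts, and TLR8 alone of these has an end of its own. Of the 14 genes 4 had at least 1 TPM, beside 38.2% of protein-coding genes. Among the sensors with a readable end, EIF2AK2 and ZC3HAV1 were above the 0.181 TPM of TLR3 in mean, and TLR8 at 0 and TLR7, named after its values were seen, with 0, 0 and 1 counts were below it.

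Of the genes that move or break down cyclic GMP-AMP or carry STING, 7 of 10 had 1 TPM or more, beside 38.2% of protein-coding genes. The cargo receptor TMED2 had 234 ± 37.3 TPM (SD, n = 3), STEEP1 163 ± 48.5 TPM and the cyclic dinucleotide importer SLC19A1 28.2 ± 3.91 TPM. ENPP1, the enzyme that hydrolyses cyclic GMP-AMP outside the cell, had 958, 863 and 1129 counts from an end of its own and was named after its values were seen. The exporter ABCC1 and the channel subunit LRRC8A had 0 counts and shared ends. The hydrolase of the messenger was thus counted with 863 to 1129 reads in the same replicates in which its synthase, CGAS, had at most 2.

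Of the nucleases and editing enzymes that clear self nucleic acids, 8 of 10 had 1 TPM or more and 9 had more than 3 counts in every replicate, beside 38.2% and 39.5% of protein-coding genes. The lysosomal DNase DNASE2 had 223 ± 34.4 TPM (SD, n = 3), the mitochondrial RNA exonuclease PNPT1 45.7 ± 20.4 TPM and the histone pre-mRNA factor LSM11 34.8 ± 4.87 TPM. SKIC2 was the only one with 0 counts beside TREX1, and both have shared ends.

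In the relay from adaptor to interferon gene, the broadly expressed transcription factor JUN had 643 ± 163 TPM (SD, n = 3), the coactivator EP300 81.4 ± 31.6 TPM and the adaptor ligase TRAF2 42.5 ± 16.2 TPM, and 13 of the 19 genes reached 1 TPM, beside 38.2% of protein-coding genes. All 8 with an end of their own had more than 3 counts in every replicate, beside 56.4%. TRAF3 with 2, 0 and 3 counts, ATF2 with 4, 0 and 1 and IRF5 with 4, 0 and 1, named after their values were seen, stayed below 1 TPM and have shared ends. IKBKE, the kinase closest to TBK1 and named after its values were seen, is one of the 8 with an end of their own. It had 130, 110 and 140 counts and 13.8 ± 3.34 TPM. IKBKG, NFKB1 and IRF7 had 0 counts and shared ends. For the kinase pair, the canonical 3′ end is thus its own in IKBKE and shared in TBK1.

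Interferon genes were at the limit of detection. Of 12, including IFNB1, IFNA1, IFNA2 and IFNA4, 11 had 0 counts in every replicate, beside 36.5% of protein-coding genes. IFNL1 had 0, 0 and 1. Of the 11 with an end of their own, 10 had 0 counts, beside 26.3% of protein-coding genes with such ends. All but IFNL3 have an end of their own by position in the annotation. A count of 0 from such an end allows up to 0.352 to 0.479 CPM in a replicate. This holds only for reads that fit 1 of these genes alone in sequence, which was not examined. The cells were not stimulated, and interferon transcripts are as a rule scarce without stimulation.

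Of 11 receptor and signalling genes downstream of interferon, 5 had at least 1 TPM, beside 38.2% of protein-coding genes. The type I receptor chain IFNAR1 had 45.1 ± 12 TPM (SD, n = 3) and the type III receptor chain IFNLR1 10.9 ± 2.13 TPM. IFNAR2, IFNGR1, IFNGR2 and TYK2 had 0 counts and shared ends. Of 28 interferon-stimulated genes, 7 had at least 1 TPM and 14 had 0 counts, beside 38.2% and 36.5% of protein-coding genes. IFIT5 had 28.0 ± 7.0 TPM (SD, n = 3), the ISG15 protease USP18 10.0 ± 3.45 TPM and the oligoadenylate synthetase OAS3 4.39 ± 1.42 TPM, while ISG15, IFIT1, IFIT2 and IFI6 had 0 counts and shared ends. CXCL10 and OASL, named after their values were seen, had 0 counts with an end of their own, so that these are readings of a count of 0. RIGI, IFIH1, TLR3, IFI16 and TREX1 are themselves known as interferon-inducible. The interferon-stimulated genes are thus split within these replicates, and 21 of 28 have ends that are shared.

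Promoters were taken from RefSeq (GRCh38.p14, 250 bases before to 50 bases after the start) and matched 7 of the 10 genes in 8 windows. CGAS, STING1 and IRF3 had none. The core of the interferon-stimulated response element, GAAA followed by 2 bases of any kind and GAAA again, which IRF3 and interferon-activated factors bind, was searched on both strands, with overlapping matches counted. It was found 3 times in the promoter of IFIH1, where 1 pair of matches overlaps, and once in that of TLR3, and 3.57% of 35116 promoters hold it. The match nearest the IFIH1 start begins 21 bases before it (chr2:162318686-162318715, minus strand) and that of TLR3, on the other strand, 4 bases before the start (chr4:186069142-186069171, plus strand), with the core in capitals.
IFIH1 promoter: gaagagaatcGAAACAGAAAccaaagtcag
TLR3 promoter: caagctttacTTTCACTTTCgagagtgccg

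TBK1, RIGI, MAVS, TREX1 and IFI16 had no match to this core in these windows. IFIH1 with 0 counts and TLR3 with 17 thus share the core, while differing in how far their 3′ ends can be read. The GC box GGGCGG, a site for SP-family factors, was found once each in the promoters of IFIH1, TLR3 and RIGI and 3 times in that of MAVS, and 45% of promoters hold it. A sequence that could form an i-motif, with 4 tracts of at least 3 C and loops of up to 7 bases on either strand, was found in the promoter of MAVS and in none of the others, against 26.8% of promoters. A match says only that these letters are present.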

How the data were processed

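HEK293T RNA (3 biological replicates) was sequenced with a QuantSeq 3′ kit. The submitters' processing notes name Trimmomatic 0.38.0, HISAT2 2.2.1, featureCounts 2.2.1 and hg38. The annotation used and the handling of reads on several transcripts are not given in the sources used here. The deposited counts are whole reads per transcript for 247541 transcripts, not normalized. The deposited TPM divides this count by the listed transcript length and was rescaled by the authors to 1000000 per replicate.

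Transcripts were matched without version to GENCODE v44, and 223558 matched. The 23983 others stayed in the totals and out of values per gene, and where they lie was not used. Counts and TPM were summed per gene. Exonic bases in 1 listed transcript were taken on the same strand, and the last 300 of the canonical transcript (Ensembl) described a 3′ end. Of 1255 transcripts with over 200 such bases only when strands are separated, 0.717% had at least 10 counts. With such bases on either strand it was 21.1% of 77210. Transcripts whose own bases are shared with the opposite strand were thus rarely counted, and why was not tested. Outside the 10 genes, an end called its own may still be shared with a transcript on the opposite strand.

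The 10 genes, the pathway lists and the markers were chosen with earlier results of these data known. The text names the 10 genes, from each list up to 3 genes with the highest mean TPM and up to 4 with 0 counts, overlapping genes with counts, and the nearest gene of 3. KRT18, PAX8 and the others given with the markers followed this rule within the marker groups, some genes that the rule names are not reported here, and XRCC5 and XRCC6 were added after their values were seen. Intervals are exact Poisson or Wilson. The search for own bases was checked on a few hand-made intervals with known answers. Python 3.11.15, numpy 2.4.6, pandas 2.3.3, scipy 1.17.1 and pysam 0.24.0 were used.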

Additional observations from a re-analysis of the deposited data

How the results depend on the processing

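The number of the 10 genes expressed, 1 at a mean of at least 1 TPM, was 6 at a mean above 0, 0 at 10 TPM, 2 at 1 CPM, 2 with mitochondrial genes left out and 0 with only protein-coding transcripts. Without replicate 3 IRF3 joined TBK1, so that leaving out each replicate gave 1 to 2. The 4 genes above 3 counts in every replicate were 1 at 10 counts and 2 with protein-coding transcripts only, and leaving out replicates gave 4. The 49 expressed pathway genes were 27 at 10 TPM, 37 with protein-coding transcripts only, 69 above 0 and 48 to 49 without a replicate, and the 51 above 3 counts were 39 with protein-coding transcripts only, 40 at 10 counts, 55 at 0 and 51 to 54 without a replicate. The median log2(TPM + 1) of the 10 genes, 0.0569, was -2.8719 with a pseudocount of 0.1, -0.8898 with 0.5, 0.0816 without mitochondrial genes, 0.2096 on CPM, 0.7233 over genes with at least 10 counts and 0.048 to 0.0696 without a replicate. The number of genes with a 3′ end in 1 listed transcript, 2, held over the last 500 bases and, an alternative chosen after seeing the data, with the strands pooled. For the 6 counted genes, 25 alternative means moved by less than the replicate SD and 5 by more, TBK1 to 10.9 and to 0, IRF3 to 0, RIGI to 0.742 and TLR3 to 0.266. The share of the 3′ end of IFIH1 was 3.8% over the last 500 bases. No paired analysis was possible because there is 1 condition. Counts of at most 21 per replicate limit the levels of the 10 genes.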
